A study of Mus musculus with 10 samples.

Results

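Tyr, Dct, Mitf and Kit are genes of pigment cells, and in the cochlea they are known from the intermediate cells of the stria vascularis, the melanocyte-like cells between its marginal and basal layers. The members were all probe sets that carry 1 of these 4 symbols in the significant genes table deposited by the authors. There were 4 of them among 45037 probe sets on the array, 1 per gene: 1417717_a_at for Tyr, 1418028_at for Dct, 1422025_at for Mitf and 1452514_a_at for Kit. Probe sets outside the authors' table had no gene names here, so any others for these 4 genes could not be examined. The 5 GeO2 samples came from cochleae of male CBA mice, 6 months old, that had eaten germanium dioxide (GeO2) at 0.15% of the diet for 4 months. The 5 control samples came from male CBA mice of the same age on normal chow. CBA is an inbred, pigmented strain used in hearing research, and the comparison asks which cochlear transcripts differ in a hearing loss related to GeO2. Whether a sample is 1 animal or several pooled is not in the labels. According to the series' design text replicates were not run, although the titles number the samples as replicates. Every p-value here reflects sample-to-sample spread, and how much of it is biological and how much technical is not known.

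Kit is the receptor tyrosine kinase for Kit ligand, and melanocyte precursors need it to migrate and survive. Mitf is the transcription factor at the centre of the melanocyte programme: it binds promoters of pigment genes, Tyr and Dct among them, and Kit signalling acts on it. Tyr encodes tyrosinase, the rate-limiting enzyme of melanin synthesis, and Dct encodes dopachrome tautomerase, which acts later in the same pathway and is an early marker of melanoblasts. Intermediate cells carry the Kir4.1 potassium channel (Kcnj10) that generates the endocochlear potential, and mice with loss-of-function alleles of Kit or Mitf can lack these cells and be deaf. Albino mice, whose tyrosinase is inactive, still have intermediate cells.

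Every member was bright enough to be tested. Of the other genes that mark these cells, Tyrp1, Pmel, Mlana, Sox10, Kcnj10 and Kcnj13 have no probe set under their symbol in the authors' deposited table and were not analysed here. The label of melanocyte genes therefore rests on the 4 members, none of which is restricted to the stria, and the RNA came from the cochlea as a whole. The table holds only probe sets with a p-value under 0.05 on these same arrays, so each member had a nominal difference before any test described here. The authors' deposited table gives signed fold changes of −2 for Tyr, −1.4 for Dct, −2 for Mitf and −1.3 for Kit, all lower in GeO2, with the authors' own p-values of 0.00978, 0.00348, 0.00179 and 0.00316.

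The proximal promoters of Tyr, Dct and Mitf are shown because Tyr and Dct are textbook targets of Mitf and because the 3 genes were all lower in GeO2. Each is the 250 bases before an annotated start site in RefSeq (GRCm38.p6), written 5′ to 3′ on the gene's own strand, so that the last base is position −1. For Tyr this is chr7:87493513-87493762 on the minus strand, for Dct chr14:118052247-118052496 on the minus strand, and for Mitf chr6:97991533-97991782 on the plus strand. The Mitf window is the most downstream of 3 listed, where transcripts of the melanocyte form start. Capitals mark matches, on either strand, to the Mitf motif CATGTG, to its longer form TCATGTG, which contains it, to the E-box CACGTG, or to the cAMP response element TGACGTCA.
Tyr promoter: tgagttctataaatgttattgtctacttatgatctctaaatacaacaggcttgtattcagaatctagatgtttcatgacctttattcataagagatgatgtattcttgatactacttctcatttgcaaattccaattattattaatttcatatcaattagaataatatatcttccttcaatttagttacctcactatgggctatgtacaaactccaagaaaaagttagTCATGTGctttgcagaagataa
Dct promoter: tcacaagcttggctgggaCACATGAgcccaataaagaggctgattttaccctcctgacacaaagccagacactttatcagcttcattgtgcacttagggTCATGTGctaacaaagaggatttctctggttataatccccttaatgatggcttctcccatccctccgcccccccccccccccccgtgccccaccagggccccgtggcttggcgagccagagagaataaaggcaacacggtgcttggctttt
Mitf promoter: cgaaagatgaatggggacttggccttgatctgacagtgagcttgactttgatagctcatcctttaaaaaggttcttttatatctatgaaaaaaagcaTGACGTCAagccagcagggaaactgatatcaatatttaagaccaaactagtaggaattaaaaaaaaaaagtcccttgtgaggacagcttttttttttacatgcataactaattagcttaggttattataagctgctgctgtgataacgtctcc

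TCATGTG occurred once in the Tyr window, from −22 to −16. It occurred on both strands of the Dct window, from −151 to −145 on the gene's strand and from −232 to −226 on the opposite strand, where it reads CACATGA as printed. The Mitf window held TGACGTCA from −153 to −146 and no match to CATGTG, and neither of the 2 windows listed for Kit held any of the 4 motifs. Over all 32851 promoter windows of this length, TCATGTG was found in 3.25%, CATGTG in 12.3%, CACGTG in 6.02% and TGACGTCA in 1.55%. The motifs were chosen with the sequences in view, and a match is a description of the letters only.

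All 4 melanocyte genes were lower in GeO2 cochleae. Mean signals were 52.1% of the control mean for Tyr, 57.3% for Mitf, 71.9% for Dct and 72.8% for Kit. All 4 passed the test, a moderated fit (limma) on log2(signal + 16) over 27022 probe sets with a Benjamini-Hochberg adjusted p under 0.05. In the same fit 7.81% of all probe sets tested were called lower, and 28.5% of the 7178 tested that the authors' table lists. The shares called in either direction were 16.3% and 59.7%. Because that table was selected on this contrast, nothing is read from the members' count against those shares. The count of 4 dropped to 2 without GeO2 replicate 5, which lost Tyr and Kit, and to 2 without control replicate 2, which lost the same genes. Of the other arrays left out in turn, GeO2 replicate 1 alone kept all 4, and each of the rest gave 3. The count was 3 with every array shifted to 1 median and 1 in a pooled-variance test on linear intensities. With the erythroid covariate described below it was 0. In RNA from whole tissue, fewer cells of a type and less RNA per cell cannot be told apart.

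Median array signal ran from 446.8 to 508.4 units, and the trimmed mean was between 1495.6 and 1496.5 on every array. Control replicate 3 stood apart from the other control arrays in its erythroid score, the mean log2 value of 19 red cell marker genes, which was 11.86 there and between 12.91 and 13.15 on the other 4. It was also the lowest control array for Tyr, Dct and Mitf. Without it the log2 changes were −1.15 for Tyr (adjusted p = 0.03 in limma), −0.54 for Dct (0.0131) and −0.88 for Mitf (0.0143), all still called, while that of Kit was −0.46 and just missed the threshold (adjusted p = 0.0527).

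Tyr, the pigment enzyme, had the widest spread of the members on the log2 scale. Its signal was 2169.2, 741.3, 1173.7, 1555 and 609.3 units in GeO2 replicates 1 to 5, against 2385.9, 2367.9, 1844.3, 3031.5 and 2362.5 units in control replicates 1 to 5. Of the GeO2 arrays, 4 lay below every control array, and GeO2 replicate 1 lay above control replicate 3, so the groups overlapped by 1 of the 25 pairwise comparisons. The means were 1250 ± 635 units in GeO2 and 2398 ± 421 units in control (SD, n = 5 each). The log2 change was −1.06 (SE 0.29, adjusted p = 0.0254 in limma), or 2.09-fold lower with a 95% interval of 1.355 to 3.226. The call depended on single arrays: the adjusted p in limma was 0.0556 without GeO2 replicate 2, 0.0573 without GeO2 replicate 5, 0.056 without control replicate 1, 0.0508 without control replicate 2 and 0.0548 without control replicate 4. The change stayed between −1.30 and −0.85 over the 10 arrays left out in turn.

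Dct, whose enzyme works downstream of tyrosinase, had signals of 28094, 20373.5, 27179.9, 31737.3 and 22912.9 units in GeO2 replicates 1 to 5, against 34742.1, 38728.5, 31496.2, 39813.6 and 36372.6 units in control replicates 1 to 5. GeO2 replicates 2 and 5 were lowest, as for Tyr. GeO2 replicate 4, the highest, lay just above control replicate 3, again an overlap in 1 of 25 comparisons. Group means were 26060 ± 4468 units in GeO2 and 36231 ± 3306 units in control (SD, n = 5 each). The log2 change was −0.49 (SE 0.11, adjusted p = 0.0132 in limma), 1.40-fold lower with a 95% interval of 1.181 to 1.665. It passed whichever single array was left out, with changes from −0.56 to −0.40. The highest signal of any probe set was 84232 units, above every Dct array, but whether the Dct probe set was near saturation was not tested.

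Mitf, the transcription factor, had 1001.9, 674.5, 460.2, 594.2 and 581.1 units in GeO2 replicates 1 to 5, against 1180.4, 1299.1, 985.8, 1243.8 and 1073.1 units in control replicates 1 to 5. GeO2 replicate 1 was again the array nearest to the controls and lay above control replicate 3 alone, while the other 4 GeO2 arrays lay below every control. The means were 662.4 ± 205 units in GeO2 and 1156 ± 127 units in control (SD, n = 5 each). The log2 change was −0.83 (SE 0.19, adjusted p = 0.0106 in limma), 1.78-fold lower with a 95% interval of 1.345 to 2.349. It passed whichever single array was left out, with changes from −0.99 to −0.71. Mitf has several promoters, and 1 probe set does not tell its forms apart.

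Kit, the receptor, was the member whose groups did not overlap. It had 2536.9, 2528.3, 1816.1, 1932.4 and 2209.8 units in GeO2 replicates 1 to 5, against 2612.3, 3207.5, 3021.6, 2920.7 and 3388.3 units in control replicates 1 to 5. GeO2 replicates 1 and 2 lay just under control replicate 1, and GeO2 replicates 3 and 4 were lowest. Groups separated in this direction in 5.62% of all probe sets tested and in 20% of those in the authors' table. The means were 2205 ± 332 units in GeO2 and 3030 ± 294 units in control (SD, n = 5 each). The log2 change was −0.46 (SE 0.13, adjusted p = 0.0282 in limma), 1.38-fold lower with a 95% interval of 1.136 to 1.674. The adjusted p in limma was 0.0533, 0.067 and 0.0595 without GeO2 replicates 3, 4 and 5, and 0.0625, 0.0527 and 0.0666 without control replicates 2, 3 and 5. It was 0.0513 with every array shifted to 1 median. By an exact two-sided permutation test on the single probe set, unadjusted, Kit gave p = 0.00794, the smallest this design allows, and Tyr, Dct and Mitf gave p = 0.0159 each.

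**Figure D1:**
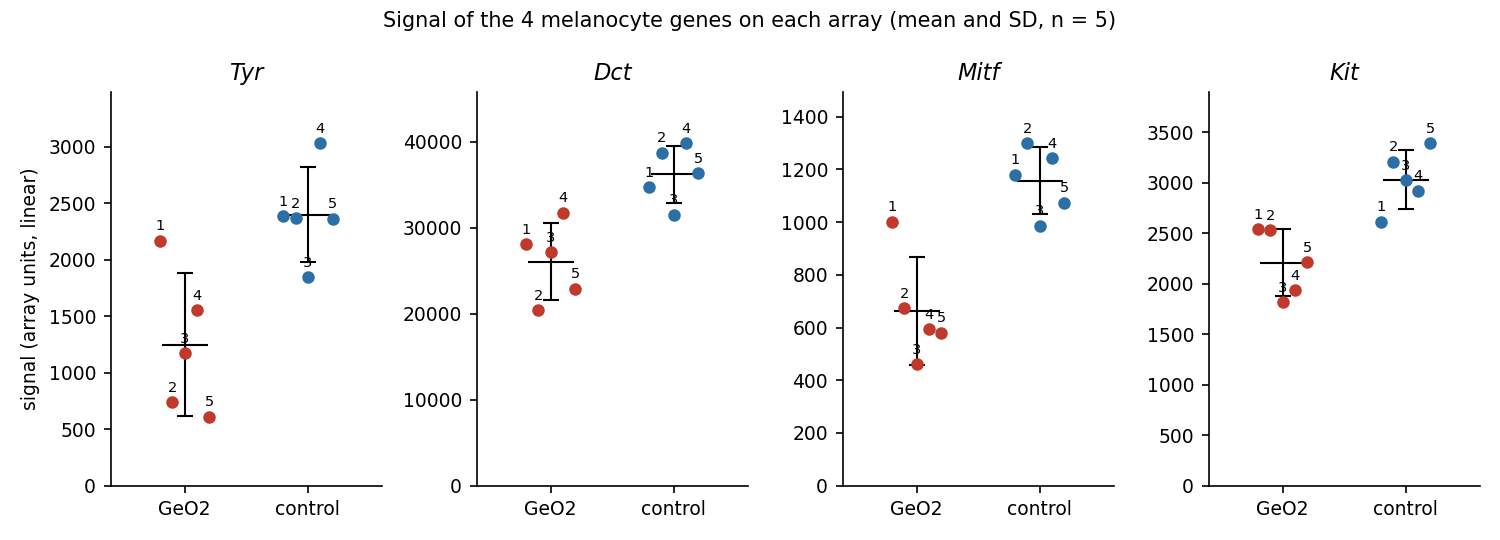
Linear signal (array units) of the probe sets for Tyr, Dct, Mitf and Kit on each array, GeO2 left and control right, with points numbered by replicate and black lines for the mean and SD (n = 5). All 4 means are lower in GeO2. Kit is the gene with no overlap between groups, and in each of the others 1 GeO2 array lies above control replicate 3.

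Within the GeO2 group the 4 genes did not rank the arrays alike. Tyr and Dct were lowest in GeO2 replicates 2 and 5, whereas Mitf and Kit were lowest in GeO2 replicate 3 and Kit was near its highest in replicate 2. The log2 SD was larger in GeO2 than in control for all 4: 0.74 against 0.25 for Tyr, 0.25 against 0.13 for Dct, 0.40 against 0.16 for Mitf and 0.22 against 0.14 for Kit, a difference that was not tested. Deviations from the group means gave a Pearson r of 0.812 between Tyr and Dct over the 10 arrays (exact within-group permutation p = 0.0275, adjusted p = 0.385 over 14 relations). Spearman's rho was 0.867 (exact permutation p = 0.00681, adjusted p = 0.0953), and r was 0.963 without the 2 arrays farthest from the median of Tyr. Between Mitf and Kit, r was 0.609 (exact permutation p = 0.119, adjusted p = 0.416), rho was 0.588 (exact permutation p = 0.113, adjusted p = 0.397) and leaving out the 2 farthest arrays gave r of 0.126, so this relation rests on those arrays. Pearson's r was 0.524 for Tyr with Mitf (exact permutation p = 0.285), 0.168 for Dct with Mitf (0.767), −0.0666 for Tyr with Kit (0.868) and −0.352 for Dct with Kit (0.412), with adjusted p of 0.798, 0.952, 0.952 and 0.923. Spearman's rho for these pairs was 0.345, 0.333, −0.224 and −0.2 (exact permutation p = 0.41, 0.398, 0.589 and 0.631, each adjusted p = 0.803), and leaving out the 2 farthest arrays gave r of −0.0108, 0.466, −0.574 and 0.122. None of the 14 relations passed after adjustment.

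**Figure D2:**
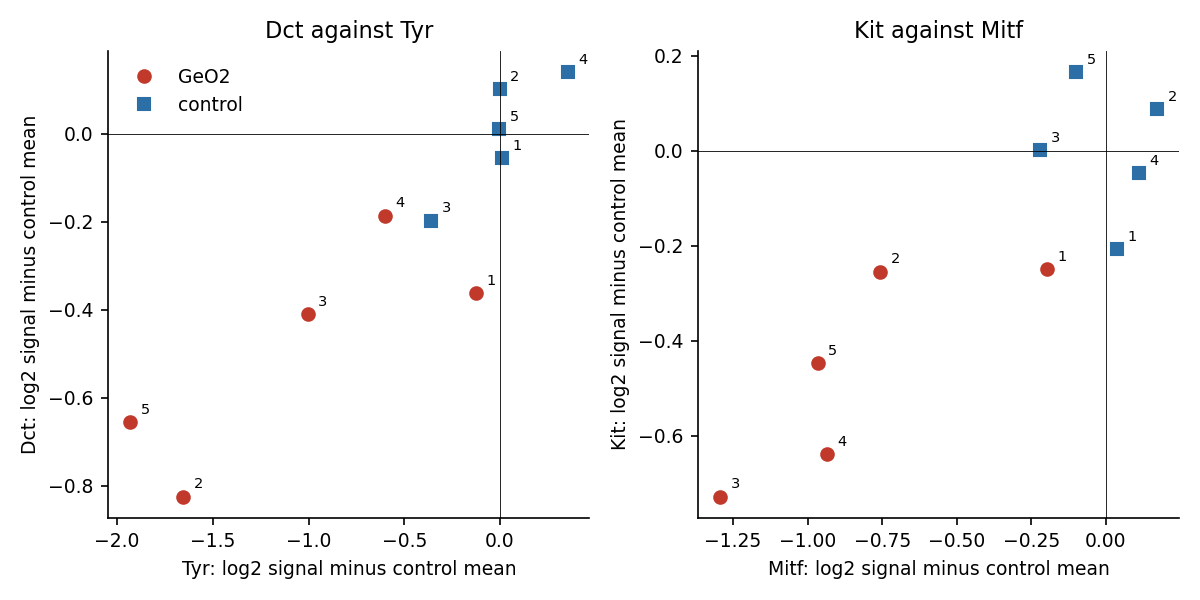
Log2 signal minus the control mean on each array (points numbered by replicate; red circles GeO2, blue squares control), Dct against Tyr at left and Kit against Mitf at right. GeO2 replicates 2 and 5 are lowest for Tyr and Dct, and GeO2 replicate 3 is lowest for Mitf and Kit.

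Whether the 4 genes changed by unequal amounts was asked of each of the 6 pairs, with an exact two-sided permutation test of the difference in log2 value within each array, adjusted over the 6. No pair passed. The Tyr change was lower than that of Dct by 0.58 on the log2 scale (log2 difference −0.58, exact p = 0.0556, adjusted p = 0.167), and the Mitf change was lower than that of Kit by 0.37 (difference −0.37, exact p = 0.0476, adjusted p = 0.167). Without GeO2 replicate 1 the difference between Tyr and Dct was −0.78 and passed (exact test, adjusted p = 0.0476). The remaining 4 differences lay between −0.60 for Tyr minus Kit and 0.34 for Dct minus Mitf, with adjusted p from 0.298 to 0.921 in the exact test.

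Strial marginal cells lie next to the intermediate cells, and Kcne1, a subunit of their potassium channel, served as the comparison. At its brighter probe set Kcne1 averaged 346.9 ± 257 units in GeO2 and 2206 ± 605 units in control (SD, n = 5 each), a log2 change of −2.96. Its mean log2 value in GeO2, 8.12, lay below the filter at 8.225, so the probe set passed the filter only through its control arrays. The log2 change of each melanocyte gene minus that of Kcne1 was 1.89 for Tyr, 2.13 for Mitf, 2.47 for Dct and 2.49 for Kit. Kcne1 was chosen with its large change known, so these differences are a description and no p-value is given for them. Of other marginal cell genes, Kcnq1, the pore subunit of the Kcne1 channel, had a log2 change of −1.24 (SE 0.28), Atp1b2, a sodium pump subunit, one of −0.99 (SE 0.13) and Slc12a2, a cotransporter that loads potassium, one of −0.56 (SE 0.14). Differences of the melanocyte genes from these were not tested.

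Of 16 genes listed for melanocyte enzymes and melanosome proteins, 4 were measured, that is, had a probe set under their symbol in the authors' table that was bright enough to be tested. Tyr and Dct fell, none rose and the test missed 2 genes. The list's median log2 change was −0.46, against −0.02 over all probe sets tested and 0.25 over those the authors' table lists. Of the 4 genes behind that median, 2 are the members Tyr and Dct, already selected on these arrays, so nothing is read from it. Slc45a2, a melanosomal transporter listed as Matp, averaged 993.2 ± 234 units in GeO2 and 1331 ± 152 units in control (SD, n = 5 each; log2 change −0.44, adjusted p = 0.0779 in limma). Bace2, a protease that cleaves the melanosome matrix protein, averaged 816.1 ± 72.2 units in GeO2 and 667.6 ± 90.0 units in control (SD, n = 5 each; log2 change 0.29, adjusted p = 0.172 in limma). Oca2, the melanosomal channel listed as p, was below the filter and was not tested, with 238.3 ± 31.7 units in GeO2 and 323.1 ± 60.1 units in control (SD, n = 5 each).

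Genes for building and moving melanosomes went both ways. Of 23 listed, 9 were measured, of which 5 rose, 3 fell and 1, Rab32, missed the threshold. Their median log2 change was 0.53, beside the 0.25 of the authors' table. In the same fit 8.5% of all probe sets tested and 31.2% of those in the authors' table were called higher. The rises were Ap1g1 (0.83, SE 0.20), a subunit of the AP-1 sorting adaptor, Vps33a (0.59, SE 0.10), a subunit of the HOPS tethering complex, Bloc1s4, listed as Cno (0.58, SE 0.15), a subunit of the BLOC-1 complex, Kif13a (0.53, SE 0.12), a kinesin that carries melanosomal cargo, and Myo5a (0.47, SE 0.13), the myosin that carries melanosomes. The falls were Hps1 (−0.73, SE 0.22) and Hps4 (−0.46, SE 0.12), the partners of the BLOC-3 complex, and Ap3b1 (−0.42, SE 0.12), a subunit of the AP-3 adaptor. A dimmer probe set of Ap1g1 went the other way without passing (−0.41, adjusted p = 0.063 in limma). Most of these genes act in lysosome-related organelles or vesicle traffic of many cell types.

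Of 20 genes listed as melanocyte regulators, 6 were measured. Mitf and Kit fell, Zeb2 and Creb1 rose, and Kitl and Bcl2 missed the threshold. The median log2 change of the 6 was −0.07. Beside these counts, 7.81% of all probe sets tested were called lower and 8.5% higher, and 28.5% and 31.2% of those in the authors' table. Both genes that fell are members, already selected on these arrays, so nothing is read from the counts. Kitl, the ligand of Kit, averaged 534.9 ± 121 units in GeO2 and 692.6 ± 84.2 units in control (SD, n = 5 each; log2 change −0.39, adjusted p = 0.162 in limma). Zeb2, a zinc finger factor of the neural crest and of melanocytes, rose at the probe set listed as 9130203F04Rik (0.85, SE 0.21), and its other 2 probe sets changed by 0.56 and 0.68 without passing. The rise counted for Creb1, a cAMP-responsive factor, came from a probe set listed as 3526402H21Rik (0.41, SE 0.13). A second probe set with that listing also rose (0.46, SE 0.12), while the probe set listed as Creb1 that was tested changed by −0.27 without passing. Bcl2, a survival factor that Mitf controls in melanocytes, missed the threshold at the probe set used for the list (log2 change 0.25, limma adjusted p = 0.172), and its other 3 probe sets rose by 0.68, 0.72 and 1.18.

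Of 25 genes listed for Kit signalling, the ligand included, 9 were measured. The test called 5 higher, 1 lower and left 3 uncalled, Kitl among them. Their median log2 change was 0.44, and the shares called higher were, as above, 8.5% of all probe sets tested and 31.2% of those in the authors' table, whose median was 0.25. Akt1, a survival kinase, rose by 0.83 (SE 0.22), Cbl, the ubiquitin ligase that turns the receptor over, by 0.68 (SE 0.12), Pik3r1, the regulatory subunit of PI3-kinase, by 0.53 (SE 0.14), Jak2 by 0.48 (SE 0.15) and Ptpn11, the phosphatase Shp2, by 0.44 (SE 0.09). Pik3ca, the catalytic subunit of PI3-kinase, fell by 0.32 (SE 0.10) at its brighter probe set and changed by 0.38 without passing at the other. Of 10 genes listed for potassium handling and other features of intermediate cells, Gjb6, a gap junction connexin, was the 1 measured. It averaged 41547 ± 3813 units in GeO2 and 36225 ± 2518 units in control (SD, n = 5 each; log2 change 0.20, adjusted p = 0.116 in limma). In RNA from the whole cochlea this signal cannot be assigned to intermediate cells.

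Kit is also carried by erythroid progenitors and mast cells, and Mitf also works in osteoclasts and mast cells, so markers of those cells are given beside the members. Of 23 erythroid and progenitor markers, 19 were measured. The test called 18 lower, led by Trim10 (−3.14, SE 0.52), Epb42 (−3.10, SE 0.56) and Rhd (−3.09, SE 0.44), and Hba-a1, a haemoglobin chain, changed by −0.21 without passing. The median log2 change was −2.49. Their summed signal ran from 60613 to 136676 units in GeO2 and from 150225 to 268493 units in control. No marker was listed at 0. All 12 markers of dividing cells were measured and fell, led by Ube2c (−2.62), Tk1 (−2.59) and Ccnb2 (−2.12), with a median of −1.98 and a summed signal from 10737 to 47103 units in GeO2 and from 38672 to 85900 units in control. Of 11 osteoclast markers, 3 were measured: Atp6v0d2, a proton pump subunit, rose by 1.18 (SE 0.30), and Acp5 (−0.77, adjusted p = 0.0846 in limma) and Nfatc1 (0.36, adjusted p = 0.0817) did not pass. The osteoclast sums were 1657 to 3592 units in GeO2 and 2087 to 3489 units in control. None of 14 mast cell markers had a named probe set, so mast cells were not analysed here. Of 10 markers of macrophages, cells in which Mitf family members also act, 3 were measured: Clec4n rose by 1.97 (SE 0.44) and Msr1 by 1.51 (SE 0.37), Fcgr3 did not pass, and the sums were 1846 to 8052 units in GeO2 and 1303 to 1636 units in control. Beside these counts, 7.81% of all probe sets tested were called lower and 8.5% higher. Of those that the authors' table lists, selected on this contrast, the shares were 28.5% and 31.2%. The part of these cells in the members' results was not tested beyond the values that follow.

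Within groups, the erythroid score went with Mitf and Kit more closely in size than with Tyr and Dct, although no relation passed adjustment over the 14 and the differences between them were not tested. The score averaged 10.49 ± 0.96 in GeO2 and 12.79 ± 0.53 in control (SD, n = 5 each). Its deviations gave a Pearson r of 0.687 with Mitf (exact permutation p = 0.0899, adjusted p = 0.416) and 0.69 with Kit (exact permutation p = 0.0588, adjusted p = 0.412). Spearman's rho was 0.806 with Mitf (exact permutation p = 0.0142, adjusted p = 0.0997) and 0.794 with Kit (exact permutation p = 0.0299, adjusted p = 0.139). Without the 2 farthest arrays r was 0.657 with Mitf and 0.656 with Kit. For Tyr, r was 0.061 and rho −0.00606 (exact permutation p = 0.908 and 1, adjusted 0.952 and 1), and for Dct, r was −0.214 and rho −0.0424 (exact permutation p = 0.659 and 0.928, adjusted 0.923 and 1); without the 2 farthest arrays r was −0.274 and 0.43. With the score as a covariate, the log2 change was −0.96 (SE 0.58) for Tyr, −0.62 (SE 0.22) for Dct, −0.21 (SE 0.31) for Mitf and −0.09 (SE 0.23) for Kit, and none passed (adjusted p from 0.301 to 0.918 in limma). The score separates the groups completely, with a highest value of 11.78 in GeO2 and a lowest of 11.86 in control, and 11 of 27022 probe sets were called in that fit. Its 19 genes all came from the authors' table, selected on this contrast, and 18 of them were called lower. That the score separates the groups was thus largely set in advance, and nothing is read from the lost calls.

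**Figure D3:**
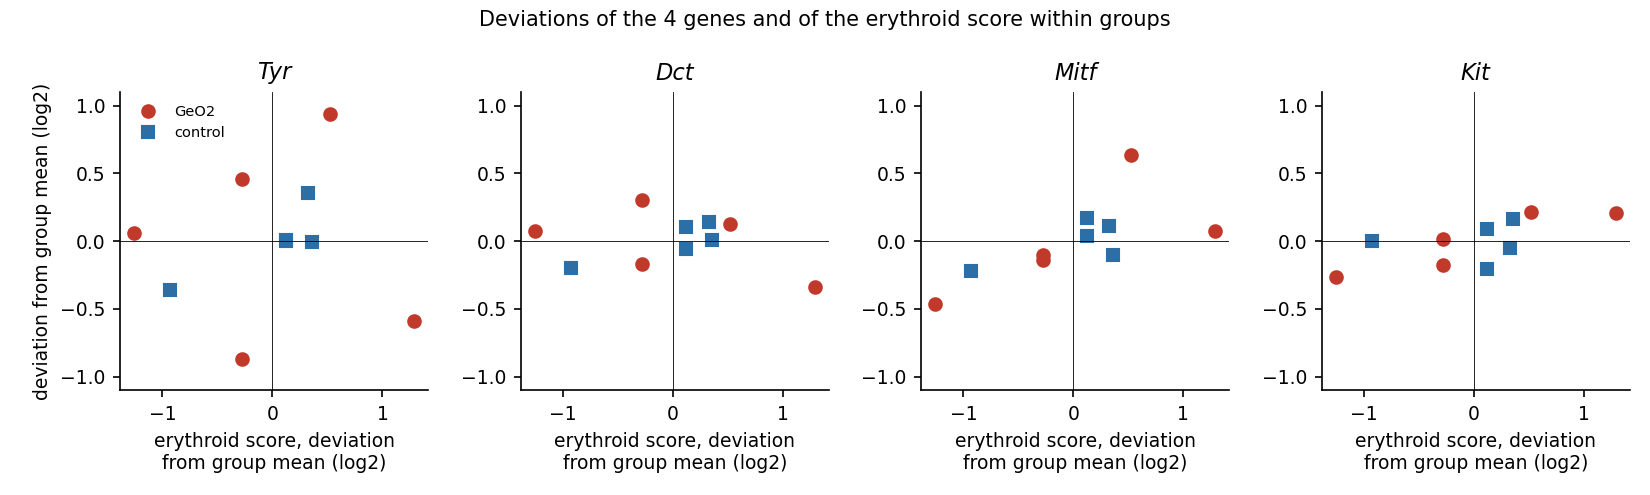
Deviation of each gene's log2 signal from its group mean against the same deviation of the erythroid score, 1 panel per gene, with red circles for GeO2 arrays and blue squares for control arrays (n = 5 each). The points of Mitf and Kit slope upward (r of 0.687 and 0.69), and those of Tyr and Dct show no such slope (r of 0.061 and −0.214).

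The same comparison within groups for Kcne1 gave a Pearson r of 0.33 with Tyr, 0.293 with Mitf, 0.184 with Kit and −0.0238 with Dct (exact permutation p = 0.484, 0.616, 0.649 and 0.952, adjusted 0.923, 0.923, 0.923 and 0.952). Spearman's rho was 0.2, 0.333, 0.261 and −0.103 (exact permutation p = 0.628, 0.426, 0.531 and 0.808, adjusted 0.803, 0.803, 0.803 and 0.943), and leaving out the 2 farthest arrays gave r of −0.437, 0.608, 0.781 and 0.64.

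The probe sets whose deviations from the group means over the 10 arrays were most like each member's were sought among 6585 candidates. These had 1 symbol and all came from the authors' table. Each top value is therefore the highest of that many and describes these arrays only. For Tyr they were 1 probe set of Mmd (r = 0.958) and 2 of Gsta2, a glutathione transferase (0.957 and 0.956). For Dct they were Apod, a lipid-binding lipocalin (0.938), Fgfbp3, listed as 2610306H15Rik (0.916), and Slc20a2, a phosphate transporter (0.915). For Mitf they were Ociad2 (0.969), Slc38a1, an amino acid transporter (0.934), and Dach1, a transcription factor (0.929). For Kit they were Tbk1, an innate immune kinase (0.923), Cpox, an enzyme of haem synthesis (0.92), and Spred1, an inhibitor of the Ras pathway below Kit (0.913). Gsta2 fell at the nearer of its probe sets (−1.69, SE 0.28), as did Ociad2 (−0.52, SE 0.14) and Cpox (−0.78, SE 0.23), while Apod (0.59, SE 0.17), Fgfbp3 (0.59, SE 0.14), Dach1 (0.83, SE 0.20) and Tbk1 (0.43, SE 0.11) rose. The rest did not pass. Of the tested probe sets in the authors' table, 28.5% were called lower and 31.2% higher, against 7.81% and 8.5% of all tested. Nothing is therefore read from this mix of directions.

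**Figure D4:**
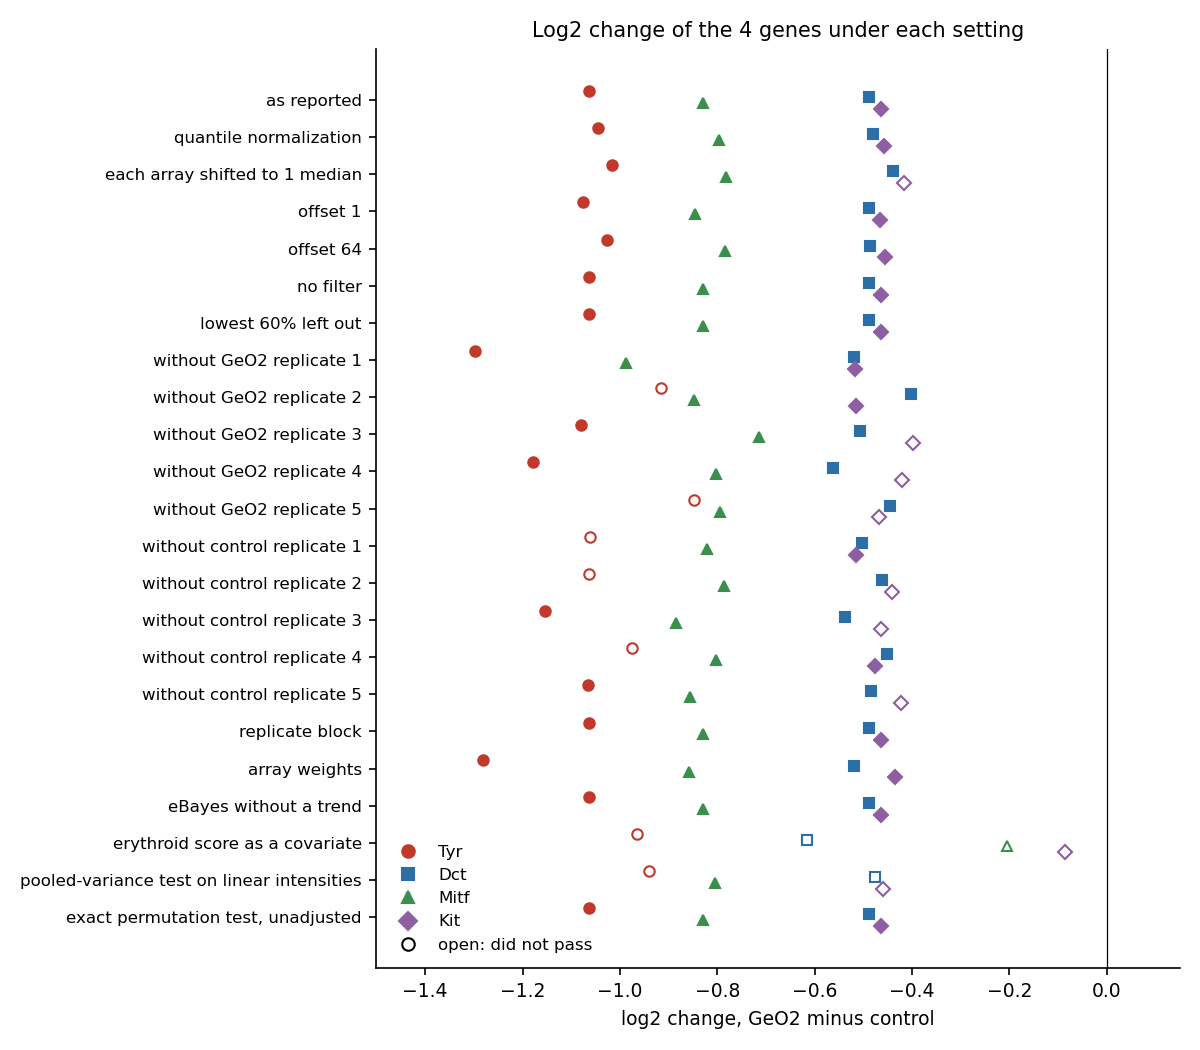
Log2 change, GeO2 minus control, of Tyr, Dct, Mitf and Kit as reported and under each of 22 other settings (filled, passed at p under 0.05, adjusted except in the last row; open, did not pass). All 4 genes, which were selected on these same arrays, stay below 0 throughout, and the covariate for the erythroid score moves Mitf and Kit nearest to 0.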

How the data were processed

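Cochlear total RNA was labelled as cRNA with biotin for Affymetrix arrays, 1 per sample, per the labels' protocols. Linear signal intensities were made by the authors with GCOS 1.3, per the submitters' processing notes, and equal trimmed means show that they had been scaled. The authors' deposited table of significant genes adds their p-value and fold change, signed as a score that is negative where GeO2 is lower, for 7806 probe sets, per the file headers, and its test is not named there. Names came only from that table, 7108 of whose probe sets have 1 symbol, with older symbols updated through mouse RefSeq (GRCm38.p6). The sources used here do not give the genome build of the array annotation.

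log2(signal + 16) was taken, the lowest 40% of probe sets by mean (18015) were left out, and a limma model (version 3.58.1, R 4.3.3) with a mean-variance trend was fitted, two-sided, with Benjamini-Hochberg adjustment over 27022 probe sets. The code was tested on simulated data. Named genes are the members, up to 6 measured genes by size of change from each melanocyte list and up to 3 from each other list, 1 probe set per gene at the highest mean, and the 3 probe sets most like each member; further list members, and other probe sets of a gene, were named after their values were seen. Members, the 13 lists and the tests were chosen with earlier results of these data known. The number of arrays, 5 per group, limits the precision. No scan dates were given in the sources used here. Alternatives were other scalings, offsets, filters, tests and weights, each array left out, a replicate block and an erythroid covariate.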

Additional observations from a re-analysis of the deposited data

Results flagged for a closer look

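The erythroid score of control replicate 3, at 11.86, lay far from the other control arrays: its gap to the nearest of them was 0.816 of the range of the 5 control arrays, above the critical value of 0.71. Chance flags about 1 in 20 such groups, and 12 groups were examined, of the 4 members, Kcne1 and the score. No array stood out in this way for Tyr, Dct, Mitf, Kit or Kcne1.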

How the results depend on the processing

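The direction was lower in GeO2 for all 4 genes under all 22 alternatives. The members had been selected as different on these same arrays. Some alternatives, such as another filter or the replicate block, also leave the size of the change as it was. This agreement in direction was therefore largely set in advance. Mitf passed under 21, Dct under 20, Tyr under 15 and Kit under 13. Each count includes the exact permutation test, which was unadjusted. All 4 genes passed it, having been selected for a p-value under 0.05 on these same arrays. With the erythroid score as a covariate the changes were −0.964 for Tyr, −0.616 for Dct, −0.205 for Mitf and −0.086 for Kit. In that fit 0 members and 11 probe sets were called, and standard errors were larger for each gene. The change was also nearer to 0 than without the covariate for Tyr (−1.064), Mitf (−0.830) and Kit (−0.464), and farther from 0 for Dct (−0.488). The pooled-variance test on linear intensities called 1 member, Mitf, with log2 ratios of means of −0.941 for Tyr (adjusted p = 0.0992), −0.475 for Dct (0.0586) and −0.459 for Kit (0.0562). Shifting each array to 1 median gave −0.416 for Kit. Leaving out 1 array gave changes from −1.298 to −0.847 for Tyr and from −0.517 to −0.397 for Kit, and 2 to 4 members and 2795 to 4855 probe sets called, against 4408 with all arrays (2795 without GeO2 replicate 5 and 2816 without control replicate 1). It gave −0.779 to −0.401 for Tyr minus Dct. The other causes were not tested. Between the deviations of same-numbered arrays r ran from −0.051 to 0.172 and was over 0.1 in 2 of 5 numbers. Of the 5 GeO2 arrays, 1 was most like its own number. These few values were not tested, and whether the numbers pair the samples is not known. With a replicate block all 4 calls held (−1.064 for Tyr, adjusted p = 0.0212; −0.488 for Dct, 0.0196; −0.830 for Mitf, 0.0113; −0.464 for Kit, 0.0438 in limma), and 4431 probe sets were called. With 1 array of each group per number, the block cannot alter the size of a difference. Those from Kcne1, a description here, were thus again 1.892 for Tyr, 2.469 for Dct, 2.127 for Mitf and 2.493 for Kit. Signal over background was not analysed here, and Mitf, the dimmest member, had a mean log2 value of 9.77 against a filter at 8.22.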

Other observations

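Neighbours of the intermediate cells other than the marginal cells had few measured markers. Of 5 strial basal cell markers, 2 were measured and both rose: Slc2a1, the glucose transporter Glut1, averaged 15597 ± 3015 units in GeO2 and 11598 ± 853 units in control (SD, n = 5 each; log2 change 0.41, SE 0.12, adjusted p = 0.0332 in limma), and Ocln, a tight junction protein listed as AI503564, averaged 1312 ± 176 units in GeO2 and 938.1 ± 113 units in control (SD, n = 5 each; log2 change 0.48, SE 0.14, adjusted p = 0.0319 in limma). Slc2a1 is also made by capillary endothelium. The median log2 change of the 2 was 0.44, and that of the 7 measured marginal cell markers, of 13 listed, was −0.67, with 6 that fell and 1, Heyl, that did not pass. Of the probe sets tested that the authors' table lists, 31.2% were called higher and 28.5% lower, against 8.5% and 7.81% of all tested. Because that table was selected on this contrast, nothing is read from these counts.

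Schwann cells share a neural crest origin with melanocytes. Of 10 of their markers, 3 were measured: Prx, a protein of peripheral myelin, rose by 0.75 (SE 0.18), Mbp, myelin basic protein, fell by 0.73 (SE 0.14), and Egr2, the factor that drives peripheral myelination, changed by 0.79 without passing (adjusted p = 0.0514 in limma). Their summed signal ran from 19801 to 36661 units in GeO2 and from 18877 to 22917 units in control.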
